A study of Mus musculus with 14 samples.

Results

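Growth factor signals to oligodendrocyte progenitors were followed through 9 genes of the 24116 in the deposited table, chosen by symbol: Pdgfa, Fgf2, Hbegf, Bmp4, Inhba, Cntf, Tgfb1, Tgfbr1 and Bdnf. They were measured by bulk RNA-seq in mouse ventral spinal cord at 5 days after a focal injection of lysophosphatidylcholine (LPC), a lipid that strips myelin. The 4 groups were lesion tissue of ablated mice (4 libraries), lesion tissue of non-ablated mice (3 libraries), distal uninjured tissue of ablated mice (4 libraries) and distal uninjured tissue of non-ablated mice (3 libraries). Ablated mice were Cx3cr1-CreER :Rosa26-iDTR+/- and non-ablated mice Cx3cr1-CreER :Rosa26-iDTR-/-.

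All groups carried the Cx3cr1-CreER driver and received tamoxifen for 3 days and, after 4 to 6 weeks, LPC followed by diphtheria toxin each day up to collection, so the groups of 1 tissue differed by the Rosa26-iDTR toxin receptor allele. The Cx3cr1 promoter drives the recombinase in microglia, the resident macrophages of the spinal cord, and in other Cx3cr1-expressing cells. Males and females, 3 to 5 per library, were pooled, so that each replicate is a pool. The age labels run from 8 to 15 months in ablated and from 2 to 7 months in non-ablated libraries and increase by 1 with each library in title order, so ablated and non-ablated libraries share no age label, and whether the labels give true ages is not known. The labels do not tie a lesion library to a distal one, and p-values measure the spread between these libraries.

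Oligodendrocyte progenitors divide and migrate toward demyelinated tissue, where they can mature into new myelinating cells. Platelet-derived growth factor A (Pdgfa) and fibroblast growth factor 2 (Fgf2) are their classical mitogens. Heparin-binding EGF-like growth factor (Hbegf) acts through EGF receptors. Bone morphogenetic protein 4 (Bmp4) turns progenitors toward an astrocyte fate, whereas activin A, the dimer of the Inhba product, and transforming growth factor beta 1 (Tgfb1) signal through activin and TGF-beta receptors, of which Tgfbr1 encodes the type I TGF-beta receptor kinase. Ciliary neurotrophic factor (Cntf) and brain-derived neurotrophic factor (Bdnf) support the survival or maturation of cells of the lineage.

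Values are the authors' normalized counts, scaled by a DESeq2 size factor, from 23601763 to 30844575 reads per library. Ablated distal library 9 stood apart, at 151.69 on the second principal component against -55.32 to 42.95 in the other 13 libraries. The marker Cx3cr1 was lower in ablated tissue, by -4.16 on the log2 scale in lesions (limma adjusted p = 0.00301) and by -3.62 in distal tissue (adjusted p = 0.00922). Of 9 microglial markers, P2ry12 and Gpr34 were listed at 0 in all 14 libraries, and so was Gpr17 among 9 progenitor markers. Pdgfra, the defining progenitor marker and the receptor of the Pdgfa product, was present in every library and was called in none of the 5 comparisons. Of the 8 progenitor markers tested, 3 rose (Cspg4, Lhfpl3 and Neu4) and 2 fell (Olig1 and Sox10) in ablated lesions, and 1 rose (Cspg4) and 2 fell (Olig1 and Sox10) in non-ablated lesions. The summed level of the progenitor markers ran from 28053 to 39216 normalized counts in ablated lesions against 32053 to 50401 in ablated distal tissue, and from 24043 to 25613 in non-ablated lesions against 36158 to 45371 in non-ablated distal tissue. These sums weigh abundant markers most. The median log2 fold change of the 8 tested markers was 0.19 in ablated and 0.13 in non-ablated lesions. Of the 8, 5 were positive and 3 negative in each genotype. The part of these marker differences in the results was not tested. All 8 mature oligodendrocyte markers fell in lesions of both genotypes.

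In lesions, Tgfb1 and its receptor gene Tgfbr1 rose in both genotypes, and Bmp4 rose and Pdgfa fell in ablated mice. In non-ablated mice Bmp4 and Pdgfa differed in the same directions, by 1.52 and -0.85 on the log2 scale, and were not called. Differences were tested with limma on log2(normalized count + 1) over 15637 genes, and a gene was called at an adjusted p under 0.05. Of the 9 genes 8 were tested, since Cntf was listed at 0 in all 14 libraries. In ablated mice 3 of the 8 rose and 1 fell, where 29.9% of all genes tested were called, 16.1% as higher and 13.8% as lower. In non-ablated mice 2 of the 8 rose and 0 fell, where 28.0% of all genes tested were called, 14.7% as higher and 13.3% as lower. A log2 fold change on this scale understates the change of low genes.

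**Figure D1:**
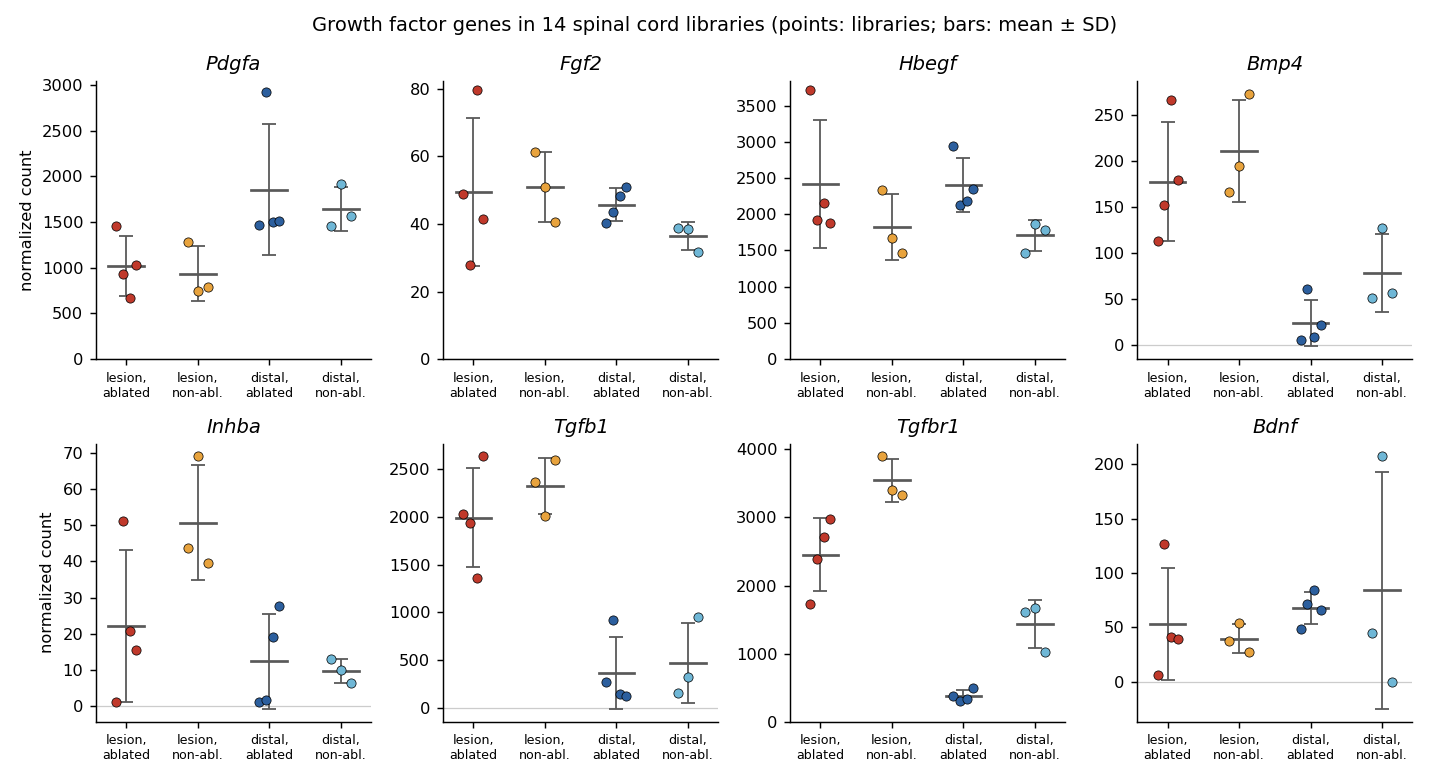
Normalized count of each tested gene (vertical axes, linear) in each library, by group along the horizontal axis; points are libraries, long bars means and whiskers SD, n = 4, 3, 4 and 3 from left to right. The lesion libraries lie above the distal ones for Tgfb1 and Tgfbr1, and for Tgfbr1 the ablated distal libraries lie at 297 to 500.5, below all other libraries.

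Tgfb1 (Entrez 21803, chr7:25687002-25705077, plus strand, GRCm38) encodes a ligand that is secreted in a latent complex. In ablated mice it had 2035, 1935, 1363 and 2634 normalized counts in lesion libraries, against 272, 920, 141 and 117 in distal libraries. Every lesion library was above every distal one, and distal library 9, the one that stood apart, held the distal maximum of 920. The log2 fold change was 2.93 ± 0.60 (SE; limma adjusted p = 0.00187), a 7.61-fold rise. It was 3.55 without distal library 9 (adjusted p = 0.000105).

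In non-ablated mice Tgfb1 had 2364, 2012 and 2599 normalized counts in lesion libraries, against 149, 321 and 947 in distal libraries. The groups did not overlap, and the highest distal value lay in library 5. The log2 fold change was 2.69 ± 0.69 (SE; limma adjusted p = 0.00941). Without distal library 5 it was 3.40 (adjusted p = 0.00231), and without distal library 1 it was 2.07 (adjusted p = 0.0475). Distal library 5 also held the highest summed recruited monocyte markers of any library (9545), against 659 and 1191 in the other non-ablated distal libraries. The part of this in the Tgfb1 value was not tested.

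Tgfbr1 (Entrez 21812, chr4:47353222-47414926, plus strand, GRCm38) encodes the kinase subunit that carries TGF-beta signals to SMAD proteins. In ablated mice it had 1731, 2389, 2716 and 2984 normalized counts in lesion libraries, against 371, 297, 327 and 500.5 in distal libraries. Every lesion library lay above every distal one. The log2 fold change was 2.71 ± 0.23 (SE; limma adjusted p = 1.59e-06), a 6.55-fold rise.

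In non-ablated mice Tgfbr1 had 3902, 3396 and 3334 normalized counts in lesion libraries, against 1607, 1671 and 1024 in distal libraries. The groups did not overlap, and the distal libraries lay above those of ablated mice. The difference in lesion response between genotypes was not called (limma interaction adjusted p = 0.558). The rise here was smaller in value, 1.33 ± 0.27 on the log2 scale (SE; limma adjusted p = 0.00206) or 2.52-fold. Pan-macrophage markers moved the same way: 8 of 8 rose in ablated and 6 of 8 in non-ablated lesions. Their summed normalized count was 41379 to 81503 in ablated lesions, 84191 to 115743 in non-ablated lesions, 2472 to 5914 in ablated distal tissue and 9171 to 13316 in non-ablated distal tissue. Fibroblast markers rose as well, 5 of 6 in ablated and 6 of 6 in non-ablated lesions. Their median log2 fold changes were 4.31 and 4.25, against 3.43 and 2.85 for the pan-macrophage markers. The part of either cell type in the Tgfb1, Tgfbr1 and Bmp4 values was not tested. In these bulk samples more cells that express a gene and more RNA of it per cell cannot be told apart.

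Bmp4 (Entrez 12159, chr14:46383525-46390669, minus strand, GRCm38) had 113, 152, 266 and 180 normalized counts in ablated lesion libraries, against 4.75, 60.1, 8.21 and 21.4 in ablated distal libraries. The groups did not overlap, although distal libraries 7 and 11 rested on 4 and 9 reads. Bmp4 rose by 3.37 ± 0.64 on the log2 scale (SE; limma adjusted p = 0.00102). The value was 2.87 without distal library 7 (adjusted p = 0.00283) and 4.00 without distal library 9 (adjusted p = 6.57e-05).

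In non-ablated mice Bmp4 had 166, 195 and 273 normalized counts in lesion libraries, against 50.9, 127 and 56.0 in distal libraries. The groups did not overlap, but the difference of 1.52 ± 0.73 on the log2 scale (SE; 95% interval -0.05 to 3.09) did not pass the test (limma adjusted p = 0.144). Without ablated distal library 9, which enters through the shared spread, the adjusted p was 0.0482, and with only the 2 non-ablated groups in the fit it was 0.0434.

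The 3 genes that rose in ablated lesions are shown with the 250 bases upstream of the transcription start, from RefSeq on GRCm38.p6, 5′ to 3′ on the gene's own strand, as they moved in the same direction. The windows are chr7:25686752-25687001 (plus strand) for Tgfb1, chr4:47352972-47353221 (plus strand) for the first of the Tgfbr1 starts and chr14:46390670-46390919 (minus strand) for Bmp4. Capitals mark GC boxes, GGGCGG on either strand.
Tgfb1: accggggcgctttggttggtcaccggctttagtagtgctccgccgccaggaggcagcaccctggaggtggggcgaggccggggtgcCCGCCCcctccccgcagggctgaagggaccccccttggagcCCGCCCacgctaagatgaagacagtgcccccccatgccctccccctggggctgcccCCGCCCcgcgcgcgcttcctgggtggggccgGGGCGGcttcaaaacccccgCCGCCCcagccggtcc
Tgfbr1: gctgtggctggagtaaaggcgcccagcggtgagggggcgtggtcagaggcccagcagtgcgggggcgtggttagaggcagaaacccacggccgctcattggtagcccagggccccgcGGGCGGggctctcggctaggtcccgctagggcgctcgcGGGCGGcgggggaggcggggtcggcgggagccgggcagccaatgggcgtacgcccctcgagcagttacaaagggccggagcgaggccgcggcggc
Bmp4: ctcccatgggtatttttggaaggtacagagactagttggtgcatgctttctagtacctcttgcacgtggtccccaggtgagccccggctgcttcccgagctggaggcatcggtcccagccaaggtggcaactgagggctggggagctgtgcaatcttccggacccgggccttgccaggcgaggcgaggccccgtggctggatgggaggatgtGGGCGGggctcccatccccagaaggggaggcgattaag
The Tgfb1 window holds 5 GC boxes and 75.2% G and C, that of Tgfbr1 holds 2 and 74.8%, and that of Bmp4 holds 1 and 63.2%. Over 32851 RefSeq promoter windows of the same length, 32.7% hold a GC box and the median content of G and C is 52.4%. A search of both strands for a SMAD box (CAGAC), an AP-1 site (TGANTCA) and a PU.1-type ETS core (GAGGAA) found no match in these 3 windows, where 42.2%, 6.75% and 23.3% of all windows hold one. The window of the second Tgfbr1 start holds 0 GC boxes, 1 SMAD box and 1 PU.1-type core. No motif contains the letters of another. A match or its lack describes only these letters.

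Inhba encodes the subunit of activin A. It had 1.25, 51.1, 20.8 and 15.7 normalized counts in ablated lesion libraries, against 1.19, 1.67, 19.2 and 27.7 in ablated distal libraries. The groups overlapped, and 3 of these libraries rested on 1 read each. The difference was 0.91 ± 0.98 on the log2 scale (SE; 95% interval -1.20 to 3.02; limma adjusted p = 0.533).

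In non-ablated mice Inhba had 43.6, 69.0 and 39.5 normalized counts in lesion libraries, against 13.0, 9.92 and 6.36 in distal libraries. Every lesion library was above every distal one, and 6 of the 8 tested genes had such separate groups in non-ablated mice, where 49.2% of all genes tested did. The difference of 2.27 ± 1.14 on the log2 scale (SE; 95% interval -0.16 to 4.71) did not pass the test with the spread shared over 4 groups (limma adjusted p = 0.16). It passed with the 2 non-ablated groups alone (adjusted p = 0.0164). In ablated mice 4 of the 8 tested genes had separate groups, Pdgfa, Bmp4, Tgfb1 and Tgfbr1, against 30.1% of all genes tested.

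Pdgfa (Entrez 18590, chr5:138976014-139000792, minus strand, GRCm38), the progenitor mitogen, had 1455, 932, 665 and 1033 normalized counts in ablated lesion libraries, against 1466, 2929, 1501 and 1513 in ablated distal libraries. The groups did not overlap, but lesion library 8, at 1455, lay close under the lowest distal library, at 1466. Pdgfa fell by 0.85 ± 0.29 on the log2 scale (SE; limma adjusted p = 0.0393). Without lesion library 10, 12 or 14 or distal library 9 the adjusted p was 0.0815, 0.123, 0.0715 and 0.1, in that order of omission.

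In non-ablated mice Pdgfa had 1281, 740.1 and 787 normalized counts in lesion libraries, against 1461, 1919 and 1561 in distal libraries. Those groups did not overlap either. The difference had the same size, -0.85 ± 0.33 on the log2 scale (SE; 95% interval -1.57 to -0.13), and did not pass the test (limma adjusted p = 0.0735). It passed without ablated distal library 9 (adjusted p = 0.0304) and without non-ablated lesion library 2 (adjusted p = 0.0453). Mature oligodendrocyte and astrocyte markers moved the same way, with 8 of 8 lower in each list and genotype. The mature oligodendrocyte sum was 313280 to 423118 in ablated lesions and 1918850 to 2670640 in ablated distal tissue, and the part of this in the Pdgfa values was not tested.

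Fgf2, the other mitogen, had 48.8, 27.9, 79.7 and 41.5 normalized counts in ablated lesion libraries, against 40.4, 43.4, 48.4 and 50.9 in ablated distal libraries. The groups overlapped, and the log2 difference of 0.02 had a 95% interval of -0.85 to 0.89 (limma adjusted p = 0.98). In non-ablated mice it had 61.4, 51.0 and 40.5 normalized counts in lesion libraries, against 38.9, 38.6 and 31.8 in distal libraries. Those groups were narrowly separate, and the log2 difference of 0.46 (95% interval -0.54 to 1.46) was not called (adjusted p = 0.512).

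Hbegf, the EGF receptor ligand that is shed from the cell surface by ADAM proteases, had 3721, 1921, 2149 and 1872 normalized counts in ablated lesion libraries, against 2947, 2132, 2188 and 2342 in ablated distal libraries. Lesion library 8 alone was above all distal libraries. The log2 difference was -0.04, with a 95% interval of -0.55 to 0.46 (limma adjusted p = 0.921). In non-ablated mice Hbegf had 2334, 1665 and 1470.2 normalized counts in lesion libraries, against 1466, 1869 and 1784 in distal libraries, with overlapping groups and a log2 difference of 0.08 (95% interval -0.51 to 0.66; adjusted p = 0.871).

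Bdnf, a neurotrophin that acts through the receptor encoded by Ntrk2, had 6.26, 127, 41.5 and 39.2 normalized counts in ablated lesion libraries, against 48.7, 71.8, 84.9 and 66.1 in ablated distal libraries. In non-ablated mice it had 37.2, 53.9 and 27.7 normalized counts in lesion libraries, against 44.9, 207 and 0 in distal libraries. The distal range of 0 to 207 spans all other libraries. The log2 differences were -0.93 in ablated mice (95% interval -3.61 to 1.75; limma adjusted p = 0.628) and 0.89 in non-ablated mice (95% interval -2.21 to 3.98; adjusted p = 0.697). The value at 0 allows up to 3 reads, or 3.82 normalized counts in that library, for counting error only. In non-ablated mice its mean was 39.6 in lesions and 84.0 in distal tissue, opposite in direction to the log2 difference, which was -1.32 without the distal library at 0.

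**Figure D2:**
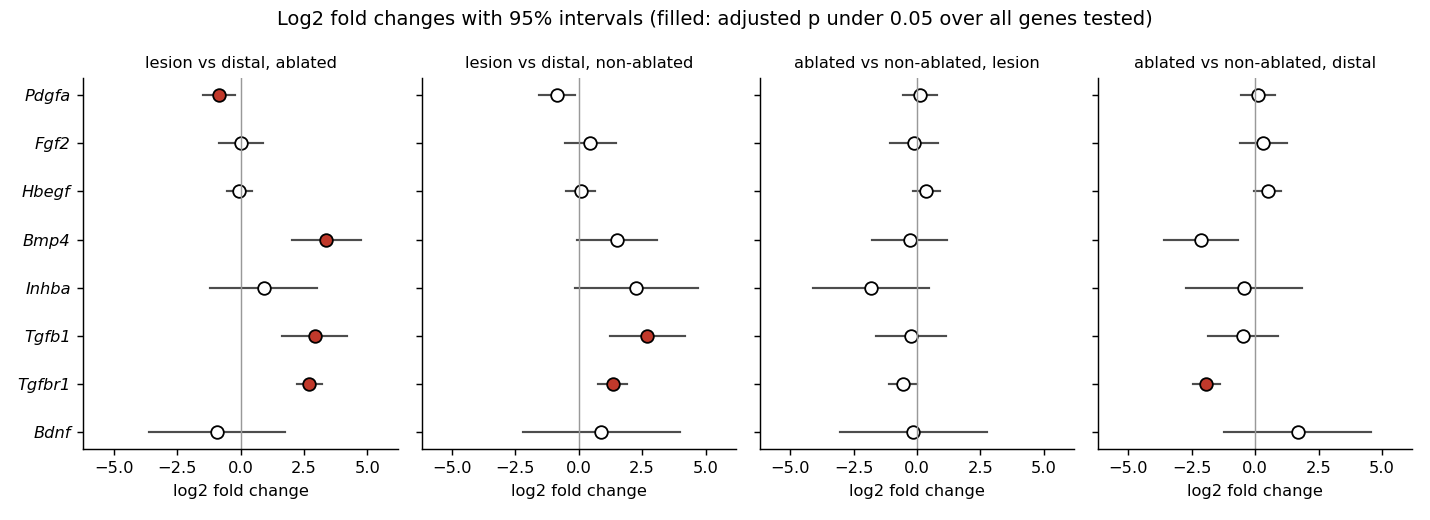
Log2 fold change of each tested gene (horizontal axes) with its 95% interval from limma, in 4 comparisons, the first named group over the second; filled points have an adjusted p under 0.05 over all genes tested. The intervals of Inhba and Bdnf are the widest and those of Tgfbr1 and Hbegf the narrowest.

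Within lesions, no difference between ablated and non-ablated mice passed the test in the 8 genes: limma, edgeR and DESeq2 each called 0 of them. Over all genes tested limma called 0.294% in this comparison, and 1 of the 8 genes had an unadjusted p under 0.05, as did 7.21% of all genes tested. That gene was Tgfbr1, with 1731, 2389, 2716 and 2984 normalized counts in ablated and 3902, 3396 and 3334 in non-ablated lesion libraries. All 4 ablated libraries were below all 3 non-ablated ones, and 16.0% of all genes tested had separate groups. The log2 difference was -0.56 ± 0.25 (SE; 95% interval -1.10 to -0.01; limma adjusted p = 0.671). The summed pan-macrophage markers were likewise lower in every ablated lesion library, at up to 81503, than in non-ablated ones, at 84191 or more. Cd68 made up most of this sum, on average 44996 of 57986 in ablated and 58339 of 96690 in non-ablated lesions. Taken singly, all 8 markers were lower in ablated lesions and 2 were called. The part of these markers in the Tgfbr1 values was not tested.

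Tgfb1 averaged 1992 ± 520 normalized counts in ablated and 2325 ± 296 in non-ablated lesions (SD, n = 4 and 3), with overlapping groups. The log2 difference of -0.25 had a 95% interval of -1.64 to 1.13, which leaves room for a change in either direction (limma adjusted p = 0.999). Bmp4 averaged 177 ± 65.0 in ablated and 211 ± 55.6 in non-ablated lesions, a log2 difference of -0.29 (95% interval -1.76 to 1.18; adjusted p = 0.999). Inhba averaged 22.2 ± 21.0 in ablated and 50.7 ± 16.0 in non-ablated lesions, and 3 of 4 ablated libraries lay under the lowest non-ablated one. Its log2 difference of -1.80 had a wide 95% interval of -4.08 to 0.47 (adjusted p = 0.916) and ran from -2.42 to -0.91 with each library left out, the smallest difference being that without ablated lesion library 8.

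Pdgfa averaged 1021 ± 328 normalized counts in ablated and 936 ± 300 in non-ablated lesions (log2 difference 0.11, 95% interval -0.56 to 0.78; limma adjusted p = 0.999). Fgf2 averaged 49.5 ± 21.9 in ablated and 51.0 ± 10.4 in non-ablated lesions (log2 difference -0.12, 95% interval -1.06 to 0.82; adjusted p = 0.999). For both mitogens the groups overlapped. Hbegf averaged 2416 ± 878 in ablated and 1823 ± 453 in non-ablated lesions, a log2 difference of 0.37 (95% interval -0.17 to 0.92; adjusted p = 0.999). Bdnf averaged 53.5 ± 51.5 in ablated and 39.6 ± 13.2 in non-ablated lesions, and its interval ran from -3.04 to 2.75.

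In distal tissue, away from the lesion, Tgfbr1 fell in ablated mice, the sole 1 of the 8 genes called, where limma called 0.365% of all genes tested, 0.326% as lower. It had 371, 297, 327 and 500.5 normalized counts in ablated and 1607, 1671 and 1024 in non-ablated distal libraries. The highest ablated library held 560 reads and the lowest non-ablated one 805, and the groups did not overlap. The log2 fold change was -1.93 ± 0.25 (SE; limma adjusted p = 0.00483), which leaves a share of 0.262 of the non-ablated level. edgeR gave -1.97 (adjusted p = 0.0064) and DESeq2 -1.94 (adjusted p = 1.33e-09). The value stayed between -2.16 and -1.80 with each library left out, with adjusted p-values of 0.00377 to 0.0397. The call was lost with the age label, which may not be a true age, in the model, at -2.21 (adjusted p = 0.0516), and with only the 2 distal groups in the fit (adjusted p = 0.566), where 0 of all 15637 genes were called.

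Markers of macrophages were lower in the same libraries. The pan-macrophage sum was 2472 to 5914 in ablated and 9171 to 13316 in non-ablated distal tissue, and Cx3cr1 averaged 80.2 ± 43.9 in ablated and 911 ± 427 in non-ablated distal tissue. Taken singly, all 7 tested microglial markers were lower in ablated distal tissue, with a median log2 difference of -1.16. Of these 1 was called, Cx3cr1, where 0.326% of all genes tested were called lower. Their sum, which weighs abundant markers most, overlapped nonetheless. It ran from 27082 to 170156 in ablated and 47079 to 95678 in non-ablated distal tissue, and library 9 held the maximum. The progenitor marker sum overlapped too, at 32053 to 50401 in ablated and 36158 to 45371 in non-ablated distal tissue. The part of macrophage markers in the Tgfbr1 difference was not tested.

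**Figure D3:**
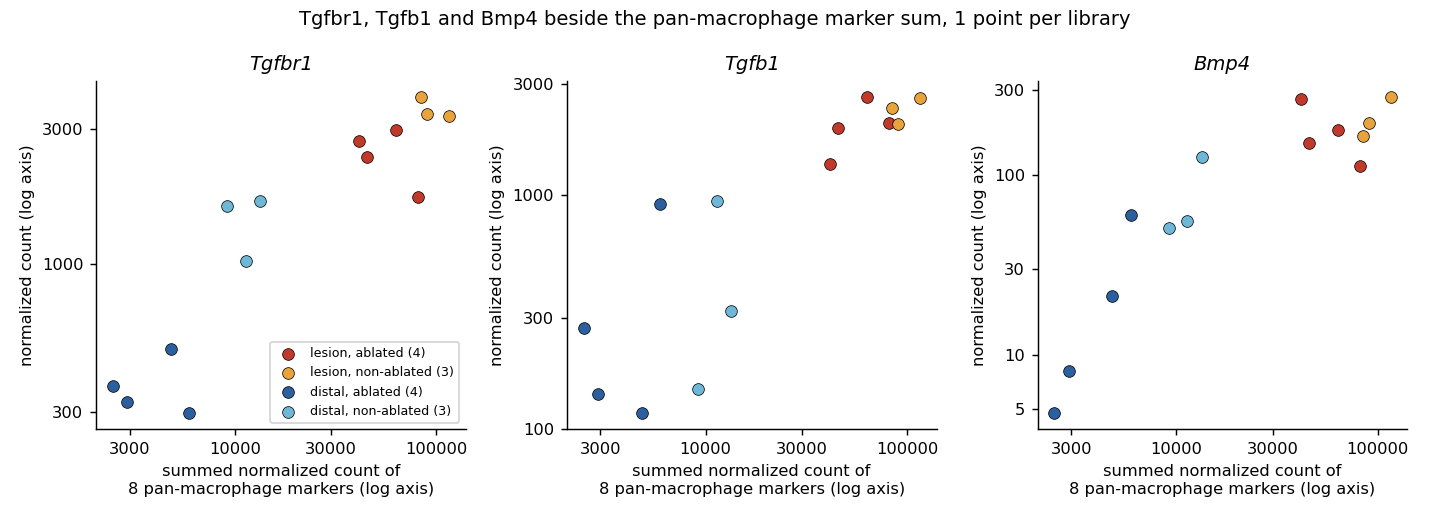
Normalized counts of Tgfbr1, Tgfb1 and Bmp4 (vertical, log axes) against the summed normalized count of 8 pan-macrophage markers (horizontal, log axes), with 1 point per library and colours for the 4 groups. Ablated distal libraries have the lowest marker sums (2472 to 5914) and the lowest Tgfbr1 (297 to 500.5), whereas for Tgfb1 the ablated and non-ablated distal libraries overlap.

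Bmp4 had 4.75, 60.1, 8.21 and 21.4 normalized counts in ablated distal libraries, against 50.9, 127 and 56.0 in non-ablated ones. Of the 4 ablated libraries 3 were below all non-ablated ones, and library 9 lay among them. The log2 difference of -2.14 ± 0.69 (SE; 95% interval -3.61 to -0.67) had an unadjusted p of 0.00748 and was not called (limma adjusted p = 0.28). Without library 9 it was -2.77 and passed (adjusted p = 0.0423).

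Hbegf had 2947, 2132, 2188 and 2342 normalized counts in ablated distal libraries, against 1466, 1869 and 1784 in non-ablated ones. All ablated libraries were higher, as for Fgf2 at 40.4 to 50.9 in ablated and 31.8 to 38.9 in non-ablated tissue. With Tgfbr1 these are 3 of 8 genes with separate groups, where 5.49% of all genes tested had them. Neither passed the test: the log2 difference was 0.49 for Hbegf (95% interval -0.06 to 1.03; limma adjusted p = 0.572) and 0.32 for Fgf2 (95% interval -0.62 to 1.26; adjusted p = 0.887). Tgfb1 averaged 363 ± 378 in ablated and 472 ± 420 in non-ablated distal tissue, with overlapping groups (log2 difference -0.49, 95% interval -1.87 to 0.90; adjusted p = 0.883). Pdgfa, Inhba and Bdnf overlapped as well, with adjusted p-values of 0.954, 0.944 and 0.763.

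Whether the lesion response differed between genotypes was tested as an interaction, ablated minus non-ablated. The test called 0 of the 8 genes, against 0.0128% of all genes tested, and 1 had an unadjusted p under 0.05, as did 5.66% of all genes tested. This was Tgfbr1, whose lesion response was larger in ablated mice by 1.38 ± 0.36 on the log2 scale (SE; 95% interval 0.61 to 2.14; unadjusted p = 0.00175; limma adjusted p = 0.558). edgeR gave 1.43 (adjusted p = 0.449) and DESeq2 1.41, which it called (adjusted p = 0.0372). Adjusted p-values over the 25 alternatives ran from 0.0372 to 1. In ablated against non-ablated mice Tgfbr1 was at -1.93 in distal tissue (called) and -0.56 in lesions (not called) on the log2 scale. For Bmp4, called in ablated lesions and not in non-ablated ones, the difference of 1.85 ± 0.97 had a 95% interval of -0.23 to 3.93 (limma adjusted p = 0.902). For Pdgfa it was 0.00 ± 0.44 (adjusted p = 1), and for Tgfb1 0.23 ± 0.91 (adjusted p = 0.99).

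Levels were compared between genes per kilobase of merged exons. In ablated lesions Hbegf had 500 ± 182 normalized counts per kb, Tgfb1 395 ± 103, Tgfbr1 376 ± 82.7 and Pdgfa 327 ± 105 (SD, n = 4), and neighbours in this order differed by less than the larger of their SDs. In non-ablated lesions Tgfbr1 came highest at 542 ± 47.7, followed by Tgfb1 at 461 ± 58.6, Hbegf at 377 ± 93.8 and Pdgfa at 300.1 ± 96.1 (SD, n = 3), and the step between Tgfbr1 and Tgfb1 alone was larger than both SDs. In ablated distal tissue Pdgfa had 594 ± 230.2 and Hbegf 497 ± 77.3 normalized counts per kb, a difference smaller than the SD of Pdgfa, whose highest value was in library 9. In non-ablated distal tissue Pdgfa had 528 ± 77.3 and Hbegf 353 ± 44.0. Tgfb1 was at 71.9 ± 75.0 per kb in ablated and 93.6 ± 83.3 in non-ablated distal tissue, and Tgfbr1 at 57.2 ± 13.7 in ablated and 219.5 ± 54.6 in non-ablated distal tissue.

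Bmp4 held a middle rank in lesions, at 78.9 ± 28.9 per kb in ablated and 93.9 ± 24.7 in non-ablated ones. In distal tissue Bmp4 was at 10.5 ± 11.3 per kb in ablated mice, where Bdnf was at 10.9 ± 2.42, and at 34.6 ± 18.8 in non-ablated mice. Fgf2, Inhba and Bdnf were low everywhere, with group means of 1.53 to 13.5 per kb. In non-ablated lesions neighbours in their order differed by less than the larger SD, and in the other 3 groups Inhba lay below Fgf2 by more than either SD. Reads of genes on the opposite strand cannot be separated, since the use of strand is not given: Pdgfa shares 813 exon bases with 6330403L08Rik, Bdnf 896 with Gm45346, Fgf2 640 with Nudt6 and Bmp4 89 with Gm15217.

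The genes whose log2 values followed each of the 8 most closely over the 14 libraries were ranked by Pearson's r, as a description, since these libraries share group, depth and scaling. Tgfbr1 was nearest to Naip5 (r = 0.987), an intracellular sensor of bacterial flagellin, Elf4 (0.975), an ETS transcription factor, and Gmip (0.966). Tgfb1 was nearest to Unc13d (0.965), a factor of granule release, and Aspm (0.958), a mitotic spindle gene. Bmp4 was nearest to Rasal3 (0.962), and Pdgfa to Tcta (0.924). For Fgf2, Hbegf, Inhba and Bdnf the highest r was 0.805 with Bnc2, 0.801 with Saxo1, 0.882 with Epc2 and 0.865 with Hace1. Of deviations from the group means, the r was 0.825 for Tgfbr1 with Naip5 and 0.431 with Gmip.

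The pathways around these genes were read from 6 lists. Of all genes tested, 16.1% were called higher and 13.8% lower in ablated lesions, and 14.7% higher and 13.3% lower in non-ablated lesions. For ablation 0.294% were called in lesions and 0.365% in distal tissue. The counts of each list stand beside these shares, and no list was tested as a set. Of 25 receptors and co-receptors, all tested, 2 rose and 7 fell in ablated lesions and 3 rose and 9 fell in non-ablated lesions. The median log2 fold change was -0.44 in ablated and -0.60 in non-ablated mice, against 0.05 and 0.07 over all genes tested. Tgfbr2, the type II partner of Tgfbr1, rose by 2.66 ± 0.26 in ablated and 2.53 ± 0.30 in non-ablated lesions (limma adjusted p = 4.27e-06 and 3.11e-05). Fgfr2, an FGF receptor of mature oligodendrocytes, fell by 2.33 ± 0.24 in ablated and 2.89 ± 0.27 in non-ablated lesions (adjusted p = 5.63e-06 and 4.81e-06). The sorting receptor gene Sort1 fell by 1.23 in ablated and 1.64 in non-ablated mice. The BMP receptor gene Bmpr1b fell by 1.84 in ablated mice and Ntrk2 by 1.38 in non-ablated mice. In non-ablated mice Bmpr1b averaged 209 normalized counts in lesions and 794 in distal tissue. At most 4 called genes are named per list and comparison, so a gene given for 1 genotype may have moved alike in the other. In lesions ablation called none of the 25, with Tgfbr2 at -0.83 (adjusted p = 0.383). Of the 25, 4 had an unadjusted p under 0.05, as did 7.21% of all genes tested.

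Of 29 other ligands of these families 23 were tested, of which 2 rose and 6 fell in ablated and 2 rose and 4 fell in non-ablated lesions (median log2 fold change -0.45 and -0.71). Osm, a cytokine that signals through the gp130 subunit shared with the Cntf receptor, rose by 5.23 ± 0.61 in ablated lesions (limma adjusted p = 1.87e-05). It averaged 150 ± 28.7 normalized counts in ablated lesions, 185 ± 17.9 in non-ablated lesions, 4.42 ± 4.00 in ablated distal tissue and 45.7 ± 12.9 in non-ablated distal tissue. Osm was the one gene of the 6 lists called for ablation, lower by -3.52 ± 0.66 in ablated distal tissue (adjusted p = 0.0369). Bmp7 rose by 2.46 in ablated and 3.11 in non-ablated lesions. Fgf1 fell by 1.96 and 2.57 and Bmp6 by 1.97 and 2.73 in ablated and non-ablated lesions, and Fgf18 fell by 2.56 in non-ablated ones.

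Of 26 genes for extracellular inhibitors, latency and processing 23 were tested, of which 12 rose and 1 fell in ablated and 11 rose and 1 fell in non-ablated lesions, with a median log2 fold change of 1.41 and 1.49. Thbs1, whose product can release TGF-beta from its latent complex, averaged 2203 ± 1032 normalized counts in ablated lesions and 23.5 ± 30.3 in ablated distal tissue (log2 fold change 7.27 ± 0.90; limma adjusted p = 3.28e-05). Furin, a protease that cleaves TGF-beta and BMP precursors, rose by 2.57 in ablated and 2.26 in non-ablated lesions. Adam17, which sheds EGF receptor ligands, rose by 1.86 in ablated and 1.68 in non-ablated lesions, and Nrros, which holds latent TGF-beta 1 on myeloid cells, by 2.18 in ablated ones. The activin inhibitor gene Fst had normalized counts from 13.7 to 64.0, with a median of 14.5, in the 3 non-ablated lesion libraries and was at 0 in all 3 non-ablated distal libraries. Bmp1, which processes BMP inhibitors, rose by 1.53 in non-ablated lesions.

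**Figure D4:**
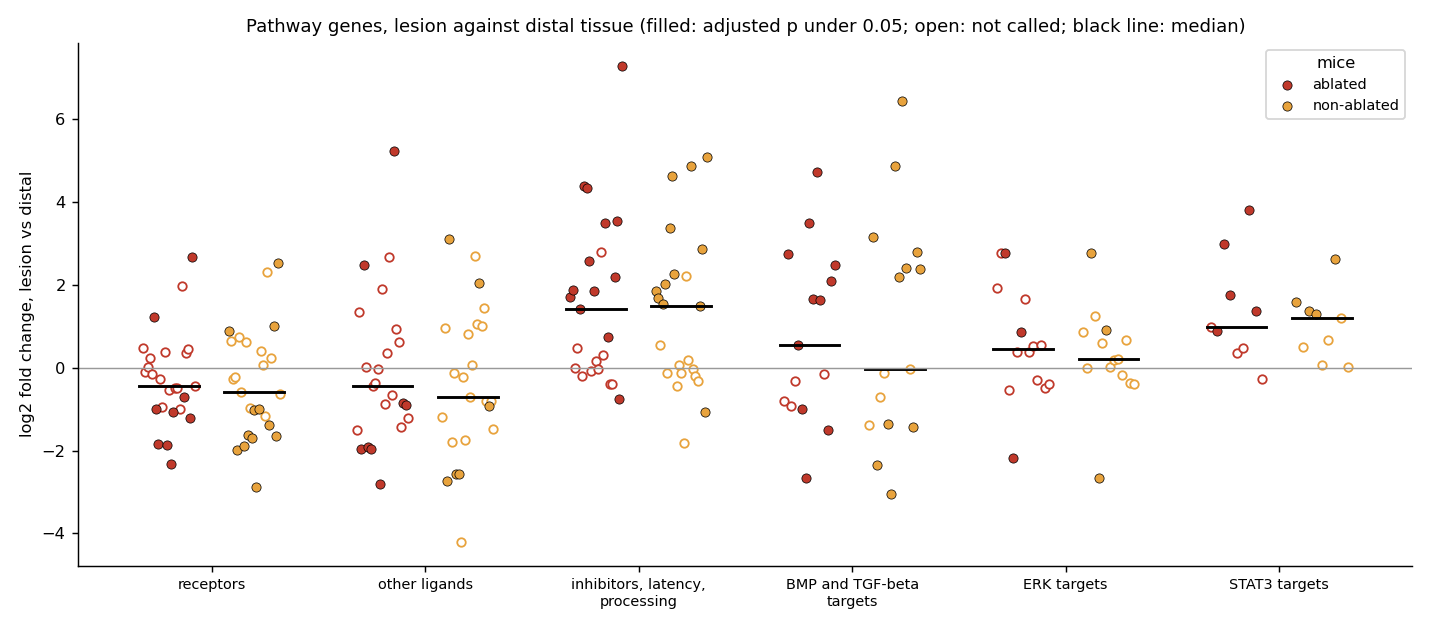
Log2 fold change of lesion against distal tissue (vertical axis) for the tested genes of 6 pathway lists (horizontal axis), ablated mice left of non-ablated mice in each pair; filled points are called, open points are not, and black lines are medians. The list of inhibitors, latency and processing has medians of 1.41 in ablated and 1.49 in non-ablated mice, and the receptors -0.44 and -0.60.

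Of 15 BMP and TGF-beta target genes 8 rose and 3 fell in ablated and 7 rose and 4 fell in non-ablated lesions, with medians of 0.56 and -0.03. Tgif1 rose by 2.48 ± 0.23 in ablated and 2.37 ± 0.27 in non-ablated lesions (limma adjusted p = 2.97e-06 and 2.04e-05), and Pmepa1 by 1.66 and 2.18, both feedback inhibitors of SMAD signals. Id4, a BMP target that is abundant in astrocytes, fell by 2.67 in ablated and 3.04 in non-ablated lesions. Astrocyte markers fell in the same tissue, with sums of 73796 to 125115 in ablated lesions, 55566 to 74301 in non-ablated lesions, 320519 to 397899 in ablated distal and 275345 to 400593 in non-ablated distal tissue. Within lesions Pmepa1 was at -0.73 ± 0.18 in ablated against non-ablated mice, with separate groups, and was not called (adjusted p = 0.137).

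Of 15 targets of ERK signals downstream of FGF, PDGF and EGF receptors, 14 were tested, of which 2 rose and 1 fell in each genotype. Dusp6, an ERK phosphatase, rose by 2.76 in both, Etv5 by 0.86 in ablated and 0.92 in non-ablated lesions, and Etv1 fell by 2.19 in ablated and 2.65 in non-ablated lesions. Of 10 STAT3 target genes, which Cntf and related cytokines switch on, 9 were tested, of which 5 rose in ablated and 4 in non-ablated lesions and 0 fell. Pim1 rose by 3.80 in ablated and 2.63 in non-ablated lesions, Il4ra by 2.99 and 1.37, Junb by 1.75 and 1.30, Socs3 by 1.36 in ablated and Bcl3 by 1.58 in non-ablated lesions. Ablation called none of the targets in either tissue, and Il4ra came nearest, at -2.03 ± 0.41 in distal tissue (limma adjusted p = 0.0534).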

How the data were processed

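RNA of microdissected mouse spinal cord pools went through reverse transcription, multiple displacement amplification (Qiagen FX kit) and 75 cycles of NextSeq sequencing, per the labels' protocols. The tools in the submitters' processing notes are bcl2fastq, BWA 0.7.17.1 and DESeq2, with the mm10 build. Which counter made the counts, from which annotation and whether by strand, is not given in the sources used here. Per the file headers and those notes, the signal deposited by the authors is counts per gene scaled with DESeq2 size factors. Dividing by each column's smallest step gave whole reads, within 0.01, for 100% of values in each of the 14 libraries. Intervals and the floor of 3 reads cover counting error only, since amplified reads lack molecular identifiers. The 8 entries without a symbol held at most 0.0239% of a library's reads.

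Groups follow the sample titles. limma 3.58.1 (R 4.3.3, trend) was fitted to log2(normalized count + 1) for the 15637 genes that reached 10 normalized counts in 3 or more libraries, as 4 group means over 14 libraries, with 10 residual and 4.23 prior degrees of freedom. p-values were adjusted by Benjamini-Hochberg over all genes tested, two-sided. Where no tool is named, an adjusted p is limma's. On simulated counts the fit recovered at least 78 of 100 genes changed 4-fold per pairwise comparison, over 15637 genes, with at most 7 false calls. Those counts were drawn with the same dispersion for all genes and libraries, whereas the real libraries differed in spread (limma array weights of 0.15 to 4.96). The rates therefore do not carry over to these data. The 26 alternatives were TMM or quantile scaling, other pseudocounts and filters, array weights, only the groups compared, the age label, omission of libraries 5 and 6, each library left out, and edgeR 4.0.16 and DESeq2 1.42.0 on recovered reads. No 2 libraries of a group were duplicates.

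The members, the 6 pathway lists and the markers were chosen with earlier results of these data known. From each list the called genes were named, at most 4 by smallest p, or 2 where none was called, and for each member the 3 genes nearest in pattern. A few of the genes so chosen are left unreported. Gene coordinates and promoters are from RefSeq, and strands, exon lengths and overlaps from GENCODE M21, both on GRCm38, the assembly of mm10. A promoter was matched for 8 of the 9 genes.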

Additional observations from a re-analysis of the deposited data

Results flagged for a closer look

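Among 16 sets of 4 libraries checked, 2 had a library far from the other 3, where chance gives about 1 in 20. Pdgfa in ablated distal library 9 was at 2929 normalized counts, against 1466 to 1513 in the other 3 ablated distal libraries. The same library stood apart in its summed microglial markers, at 170156, against 27082 to 58297 in the other 3. Its pan-macrophage sum was 5914, against 9171 to 13316 in non-ablated distal tissue. Hbegf in ablated lesion library 8 was at 3721, against 1872 to 2149 in the other 3 ablated lesion libraries. That library also held the highest pan-macrophage sum of ablated lesions, at 81503. Its progenitor, microglial, recruited monocyte and Schwann cell sums were likewise the highest of ablated lesions. Its neuron, endothelial, fibroblast and T and NK cell sums were the lowest. The part of these markers in either value was not tested.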

How the results depend on the processing

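No paired analysis was possible because no replicate number is shared by 2 groups. The labels do not say whether consecutive numbers mark tissue of 1 pool. A pairing by order was not fitted, and the lesion against distal p-values treat the libraries as independent. The calls of Tgfb1 and Tgfbr1 in lesions of both genotypes and of Bmp4 in ablated lesions were kept under all 26 alternatives. In non-ablated mice the number of the 9 genes called in lesions was 5 with only the groups compared, and 2 to 4 with each library left out (4 without ablated distal library 9). In distal tissue the number called for ablation was 0 with only the groups compared, 0 with the age label, and 1 to 2 with each library left out. DESeq2 called 1 gene for the interaction. Of 1027 alternative fold changes of the 8 tested genes 943 kept their direction and side of the threshold, 10 lost and 9 gained a call, and 65 changed sign, each of an uncalled value, and the cause was not tested. Of 2093 alternative values of the named pathway genes 2017 kept both, 55 lost and 21 gained a call and 0 changed sign. With the filter at 50, Inhba had no value. Relative to 46 and 57 genes called for ablation in lesions and distal tissue, DESeq2 called 262 and 532, array weights 1013 and 50, only the groups compared 416 and 0, the age label 2 and 7, omission of libraries 5 and 6 left 9 and 20, and omission of ablated distal library 9 left 107 and 99. For the interaction limma called 2 genes and DESeq2 97. Quantile scaling set the median log2 fold change of all genes in ablated lesions to -0.09, against 0.05.

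Sign changes of log2 fold changes, in ablated lesions against distal tissue: with quantile scaling Fgf2 -0.45 and Hbegf 0.090, with array weights Fgf2 -0.14, with DESeq2 Hbegf 0.0059 and with the age label Hbegf 0.040. In non-ablated lesions against distal tissue, Bdnf was -7.1e-05 with array weights, -1.09 with DESeq2, -1.14 with edgeR, -0.023 with a pseudocount of 10 and -1.09 without libraries 5 and 6. Between ablated and non-ablated lesions, Pdgfa was -0.0036 and Bdnf 0.22 with array weights, and Bdnf was 0.43 with DESeq2, 0.44 with edgeR, 0.42 with the age label and 0.0087 with a pseudocount of 10. Between ablated and non-ablated distal tissue, array weights gave Pdgfa -0.092 and Inhba 0.52, DESeq2 Inhba 0.37 and Bdnf -0.31, edgeR Inhba 0.36 and Bdnf -0.36, and omission of libraries 5 and 6 Tgfb1 0.22 and Bdnf -0.53. For the interaction, Pdgfa was -0.044 and Bdnf 0.74 with DESeq2, Pdgfa -0.0054 and Bdnf 0.80 with edgeR, and Pdgfa -0.065, Tgfb1 -0.39 and Bdnf 0.17 without libraries 5 and 6.

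With each library left out in turn, values that changed sign ranged as follows. In ablated lesions Fgf2 ran from -0.24 to 0.25 and Hbegf from -0.27 to 0.06, and in non-ablated lesions Hbegf from -0.12 to 0.22 and Bdnf from -1.32 to 2.53. Between ablated and non-ablated lesions Pdgfa ran from -0.074 to 0.36, Fgf2 from -0.38 to 0.11 and Bdnf from -0.76 to 0.62. In distal tissue Pdgfa ran from -0.13 to 0.23, Inhba from -1.08 to 0.15, Tgfb1 from -1.11 to 0.22 and Bdnf from -0.53 to 3.32. For the interaction Pdgfa ran from -0.19 to 0.25, Hbegf from -0.34 to 0.076, Tgfb1 from -0.47 to 0.86 and Bdnf from -3.46 to 0.39.

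Pdgfa in ablated lesions lost its call in 8 of 26 alternatives, among them array weights (adjusted p = 0.0663), only the groups compared (0.0763), the age label (0.061) and omission of libraries 5 and 6 (0.0559). Inhba and Bdnf rested on few reads, down to 1 and 0 in a library.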

Other observations

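Cntf (chr19:12763528-12765632, minus strand, GRCm38) was listed at 0 in all 14 libraries. Of its 1073 merged exon bases, 847 (78.9%) lie in exons of Zfp91 on the same strand, and Zfp91 was listed at 0 in all libraries too. Among protein-coding genes of the table, 48.5% of the 194 with at least 50% of their exon bases shared with another coding gene on the same strand were at 0 in every library, against 20.8% of the 610 with a smaller overlap and 13.7% of the 19220 with none. Whether the overlap sets the value of Cntf was not tested. Among related genes, Clcf1, Fstl3 and Timp1 were likewise listed at 0 in all 14 libraries.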
